A study of Homo sapiens with 6 samples.

Results

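The retinoblastoma family and the E2F transcription factors were followed in H1299, a line grown from a human lung carcinoma and known to lack p53, after knockdown of RBP2. The members are the pocket protein genes RB1, RBL1 and RBL2, and the E2F genes E2F1, E2F2, E2F3, E2F4, E2F5, E2F7 and E2F8. They were chosen by name, as the 10 genes that 22 of the array's 54675 probe sets carry as their symbol, and each was read from its brightest probe set over the 6 arrays. Of these 10 genes 8 reached the mean log2 level of 4 needed for testing, among 10526 tested of 19775 genes on the array. The cells carried lentiviral shRNA against RBP2, either RBP2 KD1 or RBP2 KD2, or a scramble shRNA (SC), with 2 arrays in each of the 3 groups. All cells grew in medium with 10% serum, and RNA was taken after 72 hours. The labels name no separate cultures for the replicates. The p-values therefore reflect the scatter among these arrays alone, and that scatter may be technical.

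The retinoblastoma protein and its relatives p107 (RBL1) and p130 (RBL2) hold E2F factors in check. Cyclin-dependent kinases phosphorylate the pocket proteins at the start of the cell cycle, E2F is freed, and genes of DNA synthesis are transcribed. E2F1 to E2F3 are known as activators, E2F4 and E2F5 as partners of the pocket proteins in resting cells, and E2F7 and E2F8 as atypical repressors that bind DNA without a DP partner. RBP2, now named KDM5A, removes methyl groups from lysine 4 of histone H3 and was first found as a protein that binds the retinoblastoma protein.

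Several of these genes are themselves known to be controlled by E2F, so the start regions of RBL1, E2F2, E2F3 and E2F7, for which some contrast below gave a call, are shown. Each runs 5′ to 3′ over 250 bases before and 50 bases after the annotated start, from RefSeq on GRCh38.p14, where 8 of the 10 members had a window. Capitals mark matches, on either strand, to any of the E2F site forms TTTCCCGC, TTTCGCGC, TTTGCCGC and TTTGGCGC.
RBL1, chr20:37095948-37096247, minus strand: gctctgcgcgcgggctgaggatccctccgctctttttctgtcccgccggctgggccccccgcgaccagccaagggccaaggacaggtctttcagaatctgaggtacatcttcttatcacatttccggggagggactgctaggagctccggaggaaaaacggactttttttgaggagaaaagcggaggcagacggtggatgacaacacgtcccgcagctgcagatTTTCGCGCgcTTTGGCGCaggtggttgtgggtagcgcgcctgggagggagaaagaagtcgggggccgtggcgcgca
E2F2, chr1:23531184-23531483, minus strand: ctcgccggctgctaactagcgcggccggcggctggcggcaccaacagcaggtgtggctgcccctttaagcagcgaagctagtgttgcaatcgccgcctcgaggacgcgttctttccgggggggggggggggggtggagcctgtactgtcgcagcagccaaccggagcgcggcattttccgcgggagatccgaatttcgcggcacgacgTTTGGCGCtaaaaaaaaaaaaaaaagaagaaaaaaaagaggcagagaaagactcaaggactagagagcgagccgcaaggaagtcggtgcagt
E2F3, chr6:20401629-20401928, plus strand: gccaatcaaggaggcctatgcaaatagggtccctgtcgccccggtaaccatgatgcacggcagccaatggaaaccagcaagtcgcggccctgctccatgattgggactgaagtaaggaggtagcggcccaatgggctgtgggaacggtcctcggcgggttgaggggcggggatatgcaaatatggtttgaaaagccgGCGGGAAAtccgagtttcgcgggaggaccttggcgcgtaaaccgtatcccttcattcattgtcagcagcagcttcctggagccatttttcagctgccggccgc
E2F7, chr12:77065520-77065819, minus strand: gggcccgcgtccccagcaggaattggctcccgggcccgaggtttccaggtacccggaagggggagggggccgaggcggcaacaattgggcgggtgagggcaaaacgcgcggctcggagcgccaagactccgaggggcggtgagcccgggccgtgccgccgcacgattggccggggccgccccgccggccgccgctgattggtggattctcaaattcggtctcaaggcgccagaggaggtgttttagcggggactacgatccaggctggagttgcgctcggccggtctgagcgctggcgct
RBL1 held 2 matches, at bases -26 to -19 and -16 to -9 from the start. E2F2 held 1 at -42 to -35, and E2F3 held 1 on the other strand at -53 to -46. A second E2F3 start, 1735 bases further on, held none, and the array values were not assigned to either start. E2F7 held none. E2F1, not printed, held 2 matches, so 4 of the 8 members with a window had at least 1 in any window of the gene. Of all 35116 windows 3.31% held a match, of the tested genes with a window 7.03%, and of 33 textbook E2F targets of the G1/S transition 54.5%. The cell cycle homology element TTTGAA, which the MuvB complex binds, stood in the E2F3 window at -65 to -60 and in the first RBL2 window, and in 15.2% of all windows. These are letter matches and not measured binding. The start listed for RB1, which is among the 8, lies 172699 bases inside the gene. Its window is not shown, and the first bases of RB1 were not searched.

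Knockdown was seen on both sets of RBP2 shRNA arrays. KDM5A measured 7.42 and 7.27 on the log2 scale with KD1, 6.66 and 6.72 with KD2, and 9.35 and 9.42 in scramble cells. It fell by 2.04 ± 0.11 with KD1 (SE, limma adjusted p = 0.0048) and by 2.69 ± 0.11 with KD2 (limma adjusted p = 0.0024). Array medians of the tested genes ran from 8.49 to 8.56. As checks of identity, the epithelial keratin genes KRT8 and KRT18 and the mesenchymal filament gene VIM were at 9.80 or above in every array, the epithelial surface gene EPCAM and the lung factor NKX2-1 read 2.30 and 2.82 in every array, and the leukocyte genes PTPRC and CD3E stood at 2.24, the lowest value of the table. The collagen gene COL1A1, a fibroblast marker, read 6.20 to 7.02. KRT8 was higher with KD1 by 0.74 (limma adjusted p = 0.035).

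With KD1, RBL1 fell and E2F3 rose, and with KD2, RB1, E2F7 and E2F8 fell. That is 2 of 8 tested members called with KD1, where 11.5% of all tested genes were called, 3.62% higher and 7.90% lower. With KD2 it is 3 of 8, where 31.0% were called, 16.7% higher and 14.4% lower. In the mean of both shRNAs RBL1 and E2F7 fell, 2 of 8 against 12.5% of all genes, 5.61% higher and 6.92% lower. Between the shRNAs 4 of 8 members were higher with KD1 and none lower, against 41.1% of all genes, 17.8% higher and 23.3% lower. A call is a Benjamini-Hochberg adjusted p under 0.05 over all 10526 genes in limma. With so few members these shares are read only as counts beside the background. Both shRNA comparisons use the same scramble arrays. Leaving out a single array leaves 1 array in its group, and fewer of all tested genes were then called in every comparison. A call lost that way is therefore not particular to that gene or list. Array ranges did not overlap between KD1 and scramble for 3 of 8 members, 2 above and 1 below scramble. Over all genes the share was 53.9%, with 26.4% above and 27.4% below. Between KD2 and scramble they did not overlap for 7 of 8, 1 above and 6 below, against 69.8% of all genes, 40.0% above and 29.8% below. Between KD1 and KD2 they did not overlap for 6 of 8, with 5 above and 1 below in KD1, against 72.8% of all genes, 32.2% above and 40.6% below. The labels do not say what the replicate number stands for, and it was taken from these same values to pair the arrays. With the number as a block 4 members fell in the mean comparison, E2F2 and E2F8 being the additional ones. With KD2 5 members fell, RBL1 and E2F2 being the additional ones. With KD1 the block called the same 2 members, RBL1 and E2F3, and between the shRNAs it called 5, E2F2 being the additional one. The background of the blocked model was 34.9% in the mean comparison (17.4% higher, 17.5% lower), 29.6% with KD1 (12.8% higher, 16.8% lower), 50.6% with KD2 (28.4% higher, 22.2% lower) and 57.7% between the shRNAs (25.1% higher with KD1, 32.6% lower).

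**Figure D1:**
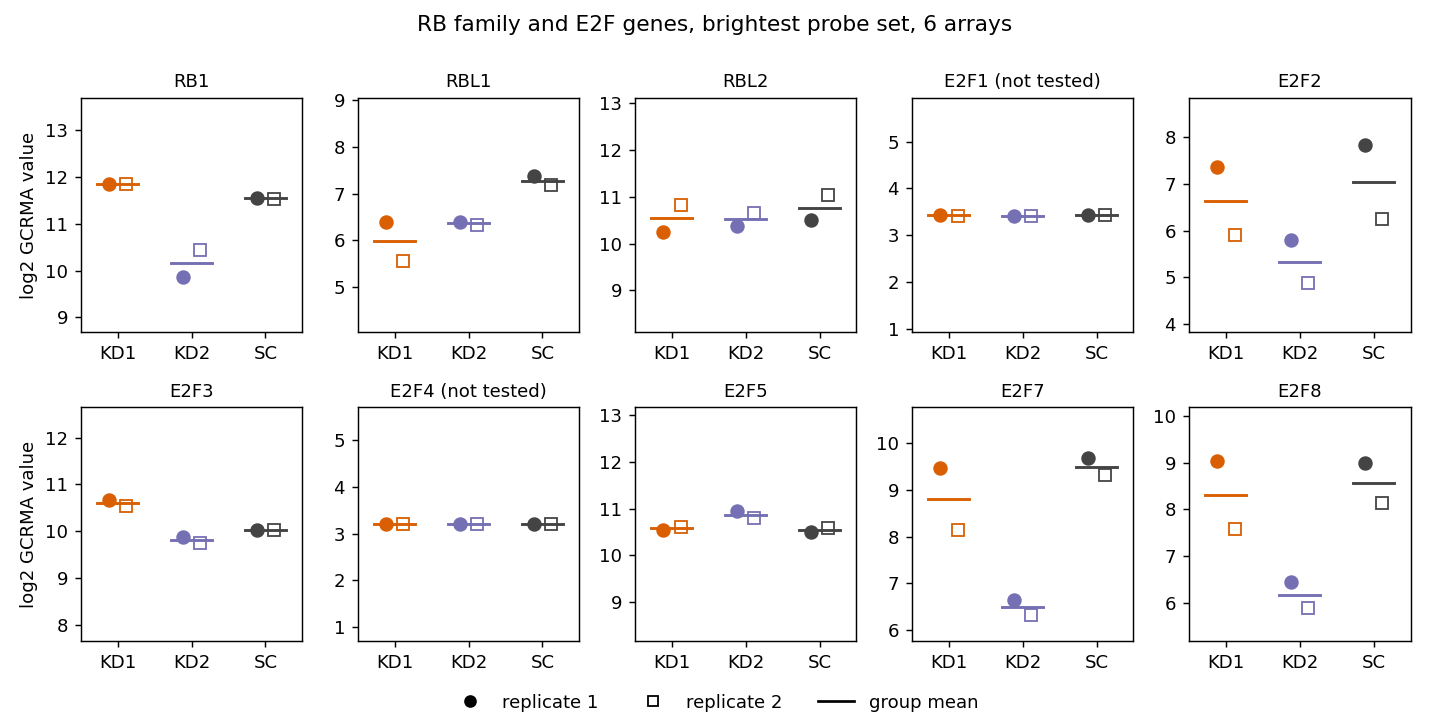
Log2 value of the brightest probe set (y axis, 1 panel per gene, all axes spanning the same number of log2 units) in KD1, KD2 and scramble (SC) cells. Points are arrays, filled circles replicate 1 and open squares replicate 2, and lines are group means. RB1, E2F7 and E2F8 sit lowest in KD2, RBL1 sits lower in all 4 knockdown arrays than in scramble, and E2F1 and E2F4 are flat at about 3.43 and 3.20.

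RB1, the retinoblastoma gene itself, fell 2.62-fold with KD2 and was not called with KD1. It measured 11.86 on both KD1 arrays, 9.87 and 10.44 on the KD2 arrays, and 11.56 and 11.53 on the scramble arrays. The KD2 arrays were thus the low ones, and no 2 groups overlapped. The log2 fold change was -1.39 ± 0.20 with KD2 (SE, limma adjusted p = 0.010). With KD1 it was 0.32 ± 0.20 (limma adjusted p = 0.37), with a 95% interval of -0.20 to 0.84. RB1 was higher with KD1 than with KD2 by 1.71 ± 0.20 (limma adjusted p = 0.0039), and the order was KD1, scramble, KD2, of which KD1 and scramble were not called different. Averaged over both shRNAs the change was -0.54 (adjusted p = 0.11), a mean of values with opposite sign. The KD2 call was lost without SC replicate 1 (adjusted p = 0.063) or SC replicate 2 (0.055), with log2 fold changes of -1.38 and -1.40. The other RB1 probe set read 2.54 on the first KD1 array and 2.24 on the others, the lowest value of the table, and gives no check. In bulk RNA a lower level can come from fewer cells with the transcript or from less of it per cell, and these cannot be told apart.

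RBL1, which encodes p107, a pocket protein that is high in cycling cells, was lower in every knockdown array than in both scramble arrays. It measured 6.39 and 5.57 with KD1, 6.39 and 6.34 with KD2, and 7.37 and 7.19 in scramble cells. The 2 KD1 arrays differed more from each other than those of the other groups, with an SD of 0.58 for KD1, 0.035 for KD2 and 0.12 for scramble (n = 2 each). RBL1 fell 2.46-fold with KD1 (log2 -1.30 ± 0.28, limma adjusted p = 0.049). With KD2 its log2 fold change was -0.92 ± 0.28, which did not pass (limma adjusted p = 0.063) but passed with the replicate number as a block (adjusted p = 0.023), with quantile normalization (0.044) and with a minimum mean log2 level of 6 (0.049). The mean over both shRNAs was -1.11 ± 0.24, a 2.16-fold fall (limma adjusted p = 0.048). The shRNAs were not called different, with KD1 minus KD2 at -0.38 and a 95% interval of -1.10 to 0.34. Without KD1 replicate 1 that difference was -0.80 and called (adjusted p = 0.032), and without KD1 replicate 2 it was 0.03. The KD1 call stood close to the threshold and was lost whichever array was left out, with adjusted p from 0.051 without KD1 replicate 1 to 0.20 without SC replicate 1 and log2 fold changes from -1.71 to -0.89. The KD2 value was called without KD1 replicate 1 or KD1 replicate 2, both at adjusted p = 0.018. The mean call was lost without KD1 replicate 2 (adjusted p = 0.064), KD2 replicate 1 (0.15), KD2 replicate 2 (0.15), SC replicate 1 (0.23) or SC replicate 2 (0.17). In a limma fit over all 18763 single-symbol probe sets at the same minimum level, in place of 1 per gene, the KD1 and mean calls were lost (adjusted p = 0.055 each). The 3 other RBL1 probe sets lay between 2.24 and 2.63 on all arrays and give no check. The 2 E2F site forms printed above stand in the start region of this gene.

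RBL2, which encodes p130, the pocket protein of resting cells, was not called in any comparison. Its arrays read 10.25 and 10.82 with KD1, 10.38 and 10.66 with KD2, and 10.50 and 11.04 in scramble cells, so all groups overlapped. The log2 fold change was -0.24 with KD1 (limma adjusted p = 0.63, 95% interval -0.95 to 0.47) and -0.25 with KD2 (limma adjusted p = 0.53, 95% interval -0.97 to 0.46). The replicate 2 array was the higher one in each group, by 0.57 with KD1, 0.29 with KD2 and 0.54 in scramble cells. With the replicate number as a block the SE was 0.11 in place of 0.28, and RBL2 was still not called with KD1 (adjusted p = 0.17) or with KD2 (0.12). A dimmer RBL2 probe set lay between 2.39 and 3.30.

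Among the activator E2F genes, E2F3 rose with KD1, and E2F2 was called with the replicate number as a block but not without it. E2F3 measured 10.67 and 10.53 with KD1, 9.87 and 9.75 with KD2, and 10.02 and 10.03 in scramble cells, with no overlap between any 2 groups. It rose by 0.57 ± 0.11 with KD1, or 1.49-fold (limma adjusted p = 0.040). With KD2 the log2 fold change was -0.22 ± 0.11 (limma adjusted p = 0.21), and KD1 exceeded KD2 by 0.79 ± 0.11 (limma adjusted p = 0.0060). A second, dimmer E2F3 probe set read 6.49 and 6.06 with KD1, 5.65 and 5.42 with KD2, and 5.86 on both scramble arrays. In the limma fit over 18763 probe sets it had a log2 fold change of 0.41 ± 0.18 with KD1, which did not pass (adjusted p = 0.23), and it differed between the shRNAs by 0.74 ± 0.18 (adjusted p = 0.032). The KD1 rise was lost with each array left out, at adjusted p from 0.091 without either KD2 array to 0.16 without SC replicate 1. Those without KD1 replicate 1, KD1 replicate 2 and SC replicate 2 were 0.13, 0.10 and 0.15. The log2 fold change stayed between 0.50 and 0.64.

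E2F2 read 7.35 and 5.90 with KD1, 5.79 and 4.88 with KD2, and 7.83 and 6.24 in scramble cells. The KD2 arrays were the lowest, and KD1 and scramble overlapped. Its log2 fold change was -0.41 ± 0.74 with KD1 (limma adjusted p = 0.77) and -1.70 ± 0.74 with KD2 (limma adjusted p = 0.14). With single arrays left out the KD2 value lay between -2.50 (without SC replicate 2) and -0.90 (without SC replicate 1), and the KD1 value between -1.20 and 0.39 without the same arrays. The mean over both shRNAs, -1.05, lay between -1.85 and -0.26 without those arrays too. The difference between the shRNAs, 1.29, was 0.57 without KD1 replicate 1 and 2.02 without KD1 replicate 2. In each group the replicate 2 array lay well below the replicate 1 array. With the replicate number as a block the SE was 0.19, and E2F2 fell with KD2 (limma adjusted p = 0.0034), in the mean of both shRNAs (0.014), and was higher with KD1 than with KD2 by 1.29 (0.0048). Within replicate 1 the KD2 array was below scramble by a log2 difference of -2.04, and within replicate 2 by -1.36. The other E2F2 probe sets read 2.24 to 2.29. E2F1, the founding member, read 3.41 to 3.44 on its brightest probe set and 2.24 to 2.26 on the other in all 6 arrays, and was not tested. At this dim level a change of E2F1 was not detectable, which does not show that the gene is silent.

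Of the E2F genes that pair with p107 and p130, E2F5 could be tested and E2F4 could not. E2F5 measured 10.55 and 10.60 with KD1, 10.94 and 10.80 with KD2, and 10.50 and 10.59 in scramble cells. Both KD2 arrays were above all others, by little. The log2 fold change was 0.32 ± 0.11 with KD2 (limma adjusted p = 0.087) and 0.03 ± 0.11 with KD1 (limma adjusted p = 0.90), and neither passed. The 95% interval with KD1 ran from -0.26 to 0.32. E2F4 read 3.20 on all 6 arrays, and its other probe set 2.86 to 2.99.

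The atypical repressors E2F7 and E2F8 had the largest changes among the tested members, and these came with KD2. E2F7 measured 9.46 and 8.13 with KD1, 6.65 and 6.33 with KD2, and 9.67 and 9.31 in scramble cells. Both KD2 arrays were far below the rest, whereas the KD1 arrays were spread widely and both lay below the first scramble array. E2F7 fell 8.03-fold with KD2 (log2 -3.01 ± 0.45, limma adjusted p = 0.010). With KD1 its log2 fold change was -0.69 ± 0.45 (limma adjusted p = 0.38, 95% interval -1.85 to 0.46), and that value was -1.36 without KD1 replicate 1 and -0.03 without KD1 replicate 2. KD1 exceeded KD2 by 2.31 ± 0.45 (limma adjusted p = 0.015). The mean over both shRNAs was -1.85 (limma adjusted p = 0.045), a call lost in the fit over 18763 probe sets (adjusted p = 0.051). The KD2 call was lost without KD2 replicate 1 (adjusted p = 0.075), KD2 replicate 2 (0.077), SC replicate 1 (0.069) or SC replicate 2 (0.051), with log2 fold changes between -3.18 and -2.83. The mean call was lost without KD1 replicate 2 (adjusted p = 0.064), KD2 replicate 1 (0.14), KD2 replicate 2 (0.14), SC replicate 1 (0.22) or SC replicate 2 (0.16). The difference between the shRNAs was lost without KD2 replicate 1 (0.080) or KD2 replicate 2 (0.097). The other E2F7 probe set read 2.26 on all arrays.

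E2F8, read by a single probe set, measured 9.04 and 7.59 with KD1, 6.44 and 5.89 with KD2, and 8.99 and 8.14 in scramble cells. As for E2F7, the KD2 arrays were the low ones, and KD1 overlapped with scramble. It fell 5.27-fold with KD2 (log2 -2.40 ± 0.57, limma adjusted p = 0.032). With KD1 its log2 fold change was -0.25 ± 0.57 (limma adjusted p = 0.82, 95% interval -1.70 to 1.20). KD1 exceeded KD2 by 2.15 ± 0.57 (limma adjusted p = 0.034). The mean over both shRNAs, -1.32, did not pass (adjusted p = 0.14) but passed with the replicate number as a block (0.013). The KD2 call was lost without KD2 replicate 1 (adjusted p = 0.12), KD2 replicate 2 (0.16), SC replicate 1 (0.14) or SC replicate 2 (0.075). The difference between the shRNAs kept its call without KD1 replicate 2, and was lost without any other array. It was 1.42 without KD1 replicate 1 (adjusted p = 0.10), 2.43 without KD2 replicate 1 (0.12) and 1.87 without KD2 replicate 2 (0.17), and it was 2.15 without SC replicate 1 or SC replicate 2 (0.056 each).

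**Figure D2:**
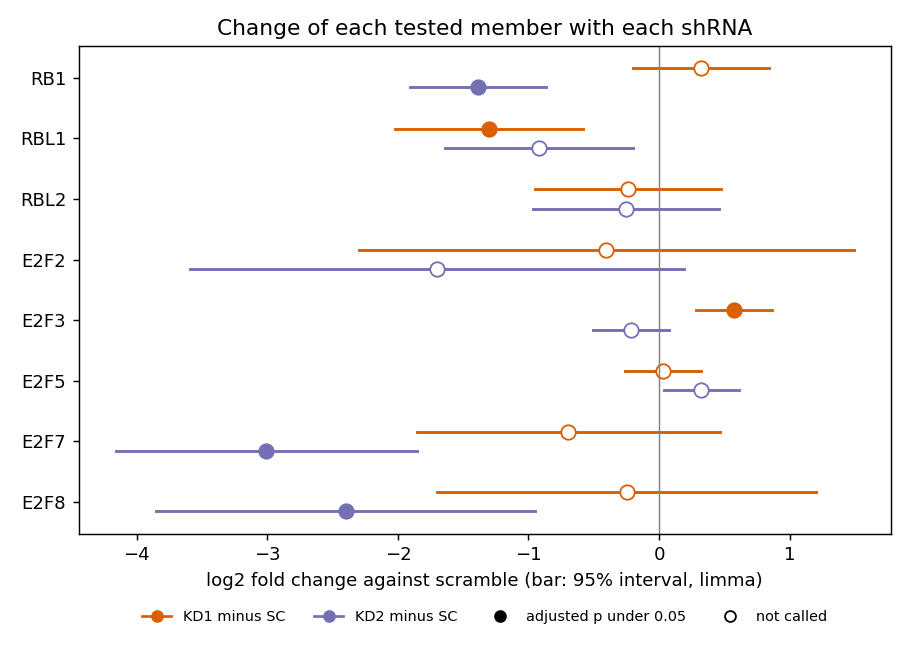
Log2 fold change against scramble (x axis) of the 8 tested members (y axis), with KD1 in orange above KD2 in purple. Bars are 95% intervals from limma, and filled points have an adjusted p under 0.05. RB1, E2F7 and E2F8 are filled with KD2, and RBL1 and E2F3 with KD1.

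Some members also differed between the arrays numbered 1 and 2, in the same direction in every group. E2F2, E2F7, E2F8 and RBL1 were lower on the replicate 2 array in all 3 groups and RBL2 was higher, that is 4 and 1 of 8 members, against 26.5% and 29.0% of all tested genes. Replicate 2 minus replicate 1 was -1.45, -0.91 and -1.59 for E2F2 in KD1, KD2 and scramble cells, and -1.46, -0.56 and -0.85 for E2F8. For E2F7 it was -1.33, -0.32 and -0.35. E2F targets of the G1/S list were lower on replicate 2 in all groups for 29 of 37 genes, and G2/M genes of the DREAM list for 27 of 28. The labels do not say what the number stands for. Within replicate 1 the KD2 minus scramble difference of E2F7 was -3.02 and within replicate 2 it was -2.99. For E2F8 these were -2.55 and -2.25, and for RB1 -1.69 and -1.09, so each stood within both numbers. KD1 minus scramble of RBL1 was -0.97 within replicate 1 and -1.62 within replicate 2, and that of E2F3 was 0.65 and 0.50. KD1 minus scramble of E2F8 was 0.05 and -0.55, and that of E2F7 was -0.21 and -1.18.

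**Figure D3:**
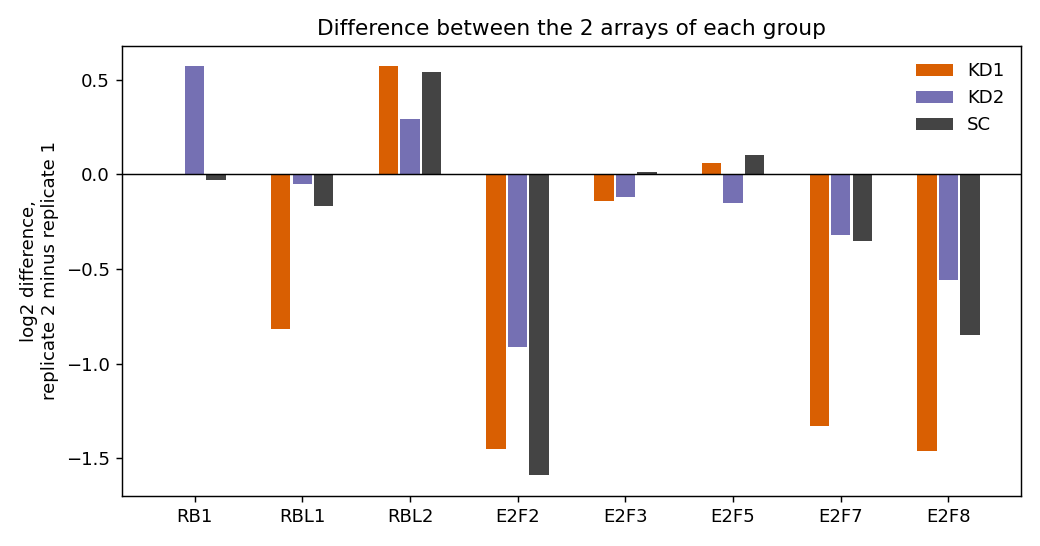
Difference in log2 value between the replicate 2 and the replicate 1 array (y axis) for each tested member (x axis) in KD1 (orange), KD2 (purple) and scramble cells (dark grey). E2F2, E2F7 and E2F8 are below 0 in all 3 groups and RBL2 is above 0 in all 3, and the KD1 bar of RB1 has no visible height.

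Genes known as targets of E2F, and of the DREAM complex in which p107 or p130 joins MuvB and E2F4 or E2F5, were mostly lower with KD2. The list of E2F targets at the G1/S transition had 21 of 37 tested genes lower with KD2 and none higher in limma, where 14.4% of all tested genes were lower. Its median log2 fold change was -1.82, against 0.08 over all tested genes. With the replicate number as a block 35 were lower (background 22.2%). The count fell to 0 without KD2 replicate 1, where the fit has fewer residual degrees of freedom, and was 1 without KD2 replicate 2 or SC replicate 1 and 14 without SC replicate 2. With KD1 the list had a median of -0.15 and 2 lower (5.41%, against 7.90% of all tested genes). They were the cyclin gene CCNE1 at -2.58 and the helicase subunit gene MCM6 at -1.59. Those counts were 1 without either KD1 array and 0 without any other single array. In the mean of both shRNAs 2 were lower (5.41%, against 6.92% of all tested genes), or 26 with the block (background 17.5%). The 2 were CDC45, an activator of the replication helicase, at -2.67 and SLBP, which binds histone messengers, at -0.84. CDC45 was at -0.82 with KD1, not called, and at -4.51 with KD2. Both KD2 arrays read 3.05 for CDC45, near the lowest value of the table, so the size of that fall is uncertain. SLBP was at 0.14 with KD1, not called, and at -1.82 with KD2, so its mean joins opposite signs. Between the shRNAs 23 of 37 were higher with KD1, where 17.8% of all genes were higher, and CCNE1 was lower. The smallest adjusted p among the higher ones belonged to SLBP (1.96 higher with KD1), the licensing factor CDT1 (3.44) and the cyclin gene CCNA2 (3.08). That count of 24 genes was 15 without KD1 replicate 1, 3 without KD2 replicate 1 and 4 without KD2 replicate 2.

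The DREAM list of G2/M genes had 26 of 28 lower with KD2, where 14.4% of all tested genes were lower. Its median log2 fold change was -3.12. Without KD2 replicate 1, KD2 replicate 2 or SC replicate 1 it had 4, 6 or 10. With KD1 limma called 0 of these 28 genes, where 11.5% of all tested genes were called. At an unadjusted p under 0.05 the list also had 0, against 3106 of all 10526 tested genes. The median was 0.06, and with the block 1 was higher and 1 lower (background 12.8% and 16.8%). In the mean of both shRNAs 10 were lower (background 6.92%), or 26 with the block (background 17.5%). The count of 10 fell with each single array left out, as the count over all tested genes did. In the mean comparison the smallest adjusted p belonged to CKS1B, which encodes a kinase subunit, at -2.86 and HMMR at -2.22. Next were the kinetochore motor gene CENPE at -2.04 and the phosphatase gene CDC25C at -2.29. CKS1B was higher with KD1 than with KD2 by 5.31, and the spindle motor gene KIF11 by 3.52. BUB1B of the spindle checkpoint was higher by 3.64 and CDC25C by 4.35. They were among 27 of 28 genes higher with KD1, where 17.8% of all tested genes were higher. Without KD2 replicate 2 it was 14. Both lists moved with KD2 as E2F7 and E2F8 did, and their part in the values of those genes was not tested.

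**Figure D4:**
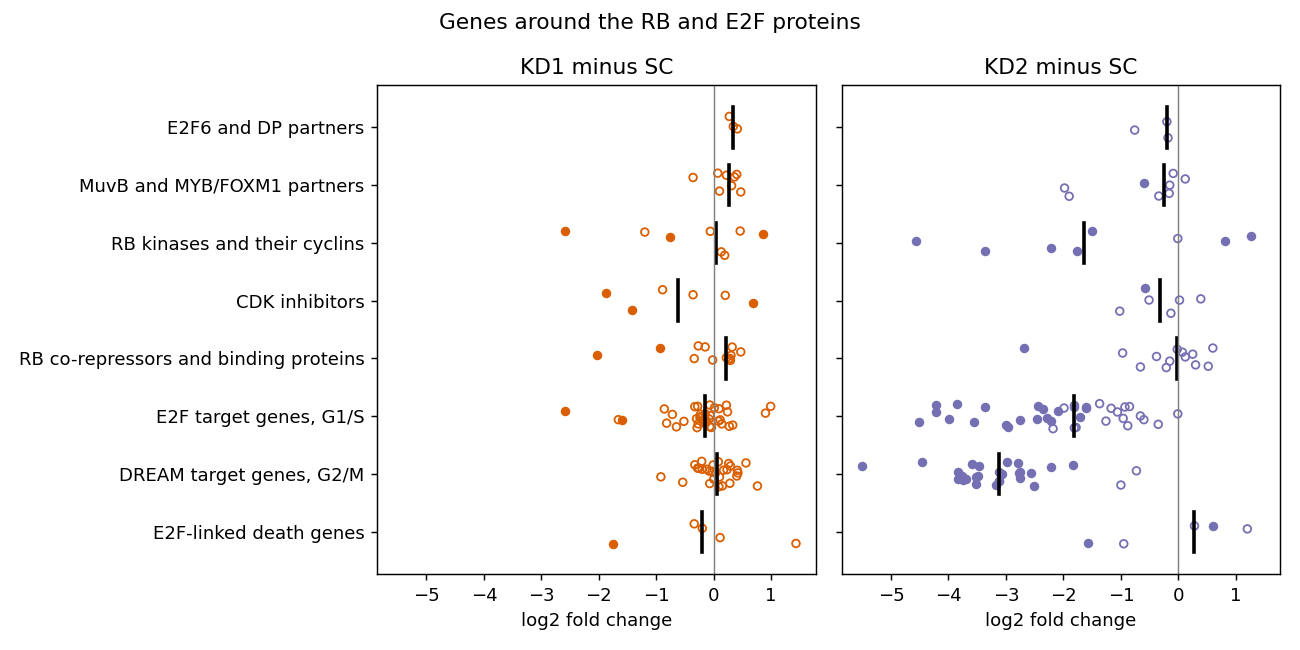
Log2 fold change against scramble (x axis) of single genes (points, filled where the adjusted p is under 0.05) in 8 lists (y axis), with KD1 on the left and KD2 on the right. Black bars are list medians, and points are spread vertically for legibility. The G1/S and G2/M lists have medians of -1.82 and -3.12 with KD2, and of -0.15 and 0.06 with KD1.

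Genes of the cyclins and kinases that phosphorylate the pocket proteins changed with both shRNAs, some in opposite directions. Of 8 tested, 2 were lower and 1 higher with KD1, where 11.5% of all tested genes were called, and 5 were lower and 2 higher with KD2, where 31.0% were called. CDK2, which pairs with cyclin E, had a log2 fold change of 0.13 with KD1 and fell by 4.56 with KD2. CDK4, a partner of D cyclins, had one of 0.19 with KD1 and fell by 2.22 with KD2. CDK6 rose by 0.86 with KD1 and fell by 1.76 with KD2, whereas CCND1, cyclin D1, fell by 0.76 with KD1 and rose by 1.27 with KD2. CCNE1 was at -2.58 with KD1 and -0.01 with KD2, and CCNE2 was at -0.06 with KD1 and -3.36 with KD2. Of these 4 values the CCNE1 value with KD1 and the CCNE2 value with KD2 passed. Both genes stand in the G1/S list too. In the mean of both shRNAs CDK2 (-2.21), CCND2 (-1.36) and CDK4 (-1.02) were called lower, 3 of 8 against 12.5% of all tested genes. With the block 6 were lower and 1 higher, against 17.5% and 17.4% of all tested genes. The KD1 count of 3 was 1 without either KD1 array and 0 without a KD2 or SC array. The KD2 count of 7 was 4 without KD2 replicate 2 or either SC array. The mean count of 3 was 1 without KD1 replicate 1 and 0 without any other single array.

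Of 6 tested CDK inhibitor genes, 2 were lower and 1 higher with KD1 (11.5% of all tested genes called), and 1 was lower with KD2. That is 16.7% of the list with KD2, below the 31.0% of all tested genes. CDKN1A, which encodes p21, fell by 1.88 with KD1, and CDKN2D by 1.42. CDKN1B, which encodes p27, rose by 0.69 with KD1, and CDKN2A fell by 0.58 with KD2. With the block 3 were lower and 1 higher with KD1, against 16.8% and 12.8% of all tested genes. With KD2 the block had 3 lower, against 22.2% of all tested genes. Between the shRNAs 2 were higher with KD1 and 3 lower, where 41.1% of all tested genes were called. The KD1 count of 3 was 1 without any KD1 or KD2 array and 0 without either SC array, and the KD2 count was 0 without any KD2 or SC array.

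The partners of the pocket proteins and E2F on DNA had 1 call against scramble, with KD2, and more between the shRNAs. Against scramble 11.5% of all tested genes were called with KD1 and 31.0% with KD2, or 29.6% and 50.6% with the block. Among E2F6 and the DP genes limma called 0 of 3 tested with either shRNA. At an unadjusted p under 0.05 there were 0 with KD1 and 1 with KD2, against 3106 and 4638 of all 10526 tested genes. The block called 1 with each. TFDP2, a DP subunit gene, was higher with KD1 than with KD2 by 1.03 (limma adjusted p = 0.022). The count of 1 between the shRNAs was 0 without any single array but KD2 replicate 2, and it was 3 of 3 with the block. Of 8 tested genes of MuvB and its MYB and FOXM1 partners, limma called 0 with KD1, where 1 had an unadjusted p under 0.05 and the block called 1. With KD2 it called LIN9, a MuvB subunit gene, lower by 0.59, or 3 genes lower with the block, and 0 without any KD2 or SC array. The LIN9 call with KD2 is 12.5% of this list, below the 31.0% of all tested genes. The mitotic activator gene FOXM1 had log2 fold changes of 0.10 with KD1 and -1.90 with KD2 (limma adjusted p = 0.053). MYBL2, whose product joins MuvB in cycling cells, had 0.40 with KD1 and -1.98 with KD2 (limma adjusted p = 0.067). FOXM1 and MYBL2 were higher with KD1 than with KD2, by 2.00 and 2.39, and with the LIN9 and LIN52 genes they made 4 of 8, or 5 with the block, against 41.1% of all tested genes without the block and 57.7% with it. That count was 0 without KD2 replicate 1 and 1 without any of KD1 replicate 1, KD2 replicate 2 or the SC arrays.

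Of 13 tested genes of co-repressors and other proteins that bind the retinoblastoma protein, KDM5A, the target of the shRNAs, fell with both. The deacetylase gene HDAC1 fell with KD1 by 0.94. These calls are 15.4% of the list with KD1 and 7.69% with KD2, against 11.5% and 31.0% of all tested genes. KDM5A, whose fall was the aim of the shRNAs, is counted in these shares and in the blocked counts below. It was the only call with KD2, and HDAC1 was the only other call with KD1. With the block 3 were lower and 1 higher with KD1, and 4 lower and 3 higher with KD2. The blocked background was 29.6% with KD1 and 50.6% with KD2. The KD1 count fell with each single array left out. Without either SC array the call of KDM5A itself with KD1 was lost, where calls over all tested genes fell too.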

How the data were processed

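Transcripts of H1299 cells were measured on 6 arrays of 54675 probe sets, from 250 ng of total RNA each. The deposited log2 values came from GCRMA, which the submitters' processing notes name without a version. The method adjusts background by probe sequence, normalizes between arrays and summarises probe sets. Dim probe sets are pressed against a floor, and 37.8% to 38.7% of an array's values stood at the lowest one, 2.24. The log2 scale was read from the range of the values, which were used as deposited.

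Probe sets were named from the platform annotation, with 41091 carrying 1 symbol, 1801 several and 11721 none, the last 2 kinds left unnamed. Each of 19775 genes was represented by its brightest probe set and tested at a mean log2 of at least 4. Limma 3.58.1 in R 4.3.3 fitted 3 group means, with 3 residual degrees of freedom, two-sided, and p-values were adjusted over 10526 genes by Benjamini-Hochberg. The number of arrays limits the precision, with a median SE of 0.17 for one shRNA against scramble. SDs are over the 2 arrays of a group, and SEs and intervals are limma's moderated ones. The fit was tested on simulated data.

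Groups and replicate numbers came from the sample titles. Replicate 2 minus replicate 1 correlated across genes by 0.54 (KD1 with KD2), 0.75 (KD1 with SC) and 0.51 (KD2 with SC), so the numbers were taken to pair the arrays. The members and lists were chosen with earlier results of these data known. All members are named. List genes are named where called among the 4 lowest adjusted p of their list, in the mean comparison or between the shRNAs, and others after their values had been seen. Windows and chromosomes of start regions came from RefSeq.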

Additional observations from a re-analysis of the deposited data

Results flagged for a closer look

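The effects of the 2 RBP2 shRNAs differed by limma's test of KD1 minus KD2 for 4 of 8 tested members, against 41.1% of all tested genes. RB1 was higher with KD1 than with KD2 by 1.71 on the log2 scale (adjusted p = 0.0039), E2F3 by 0.79 (0.0060), E2F7 by 2.31 (0.015) and E2F8 by 2.15 (0.034). The log2 fold changes with KD1 and KD2 were 0.32 and -1.39 for RB1, 0.57 and -0.22 for E2F3, -0.69 and -3.01 for E2F7 and -0.25 and -2.40 for E2F8. Each difference had the same sign within both replicate numbers, at 1.99 and 1.42 for RB1, 0.80 and 0.78 for E2F3, 2.82 and 1.81 for E2F7 and 2.60 and 1.70 for E2F8. KDM5A itself was higher with KD1 than with KD2 by 0.65 (adjusted p = 0.010), and its part in these differences was not tested. The E2F7 difference was lost without KD2 replicate 1 (adjusted p = 0.080) or KD2 replicate 2 (0.097), and the E2F8 difference without any single array but KD1 replicate 2, at 1.42 without KD1 replicate 1 (0.10).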

How the results depend on the processing

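Of the members' log2 fold changes under settings other than leaving out an array, 225 kept direction and side of the threshold, 11 lost the call, 7 gained it and 1 turned, RBL2 between the shRNAs to -0.20 with the mean of all probe sets. With arrays left out the counts were 138, 39, 3 and 12, where 2 residual degrees of freedom are left, against 3 with all arrays. With no filter on dim genes, 0 members were called in the mean comparison, 0 with KD1, 0 with KD2 and 2 between the shRNAs, and 2, 2, 17 and 23 genes over all pathway lists, against 20, 10, 58 and 71 of 104 in the main analysis. That setting tested 19775 genes and called 332, 311, 1470 and 2477 of them, against 1318, 1213, 3264 and 4327. With the mean of all probe sets, 1 member was called in the mean comparison and 0 with KD1. RBL1 dropped below the filter there, and E2F3 with KD1 was at 0.49 (adjusted p = 0.078). With the second brightest probe set only E2F3 was left, with 0, 0, 0 and 1 calls, and 6, 3, 29 and 30 of 51 list genes tested. Without probe sets whose names end in _x_at or _s_at, E2F3 and E2F5 could not be tested, as all of theirs end in _s_at. In that setting 1 member was called with KD1. The list counts were 10 in the mean comparison and 46 between the shRNAs, of 71 tested. Quantile normalization gave 31 list genes in the mean comparison. With the replicate number as a block 4 members were called in the mean comparison and 5 with KD2, and 68 and 19 list genes in the mean and KD1 comparisons. Beyond the calls of E2F2, E2F8 and RBL1 given above the block changed no call of a member. Over all tested genes it called 3670, 3117, 5324 and 6071. Leaving out 1 array at a time, members called ranged from 0 to 2 in the mean comparison, 0 to 0 with KD1, 0 to 4 with KD2 and 2 to 4 between the shRNAs. Pathway genes ranged from 0 to 13, 0 to 3, 11 to 64 and 30 to 73. Uncalled log2 fold changes turned in RBL2 (-0.52 to 0.02 in the mean, -0.52 to 0.04 with KD1, -0.52 to 0.02 with KD2, -0.27 to 0.30 between the shRNAs), E2F2 with KD1 (-1.20 to 0.39), E2F5 with KD1 (-0.02 to 0.08), E2F8 with KD1 (-0.98 to 0.48) and RBL1 between the shRNAs (-0.80 to 0.03). Calls over all tested genes also fell in every comparison with each array left out. Apart from the settings named here, the cause of these shifts was not tested. Dim signal limits E2F1 and E2F4, which no setting with a filter tested.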

Other observations

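Of 5 tested genes of cell death that E2F is known to control, 2 were lower and none higher in the mean of both shRNAs, where 12.5% of all tested genes were called. APAF1, the scaffold of the apoptosome, fell by 0.89 in the mean of both shRNAs (limma adjusted p = 0.017), with -0.20 with KD1 and -1.58 with KD2. MAP3K5, a stress kinase gene, rose by 0.61 with KD2 (limma adjusted p = 0.042), where 31.0% of all tested genes were called. PMAIP1, which encodes NOXA, fell by 1.35 (limma adjusted p = 0.045), with -1.75 with KD1 and -0.95 with KD2. The count of 2 called in the mean comparison was 0 without any single array but KD1 replicate 1. BCL2L11, which encodes BIM, read 8.37 and 9.22 with KD1, 8.06 and 9.05 with KD2, and 6.88 and 7.83 in scramble cells, so every knockdown array lay above both scramble arrays. Its mean change of 1.32 on the log2 scale missed the threshold (limma adjusted p = 0.12) and passed with the replicate number as a block (adjusted p = 0.0048).

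For the called members, the tested genes with the most alike profiles over the 6 arrays, by Pearson r among 4527 genes spanning at least 1 log2 unit, were as follows. SRP68, LAPTM4A and COG2 followed RB1 (r of 0.9997, 0.9993 and 0.9976). INO80E, YRDC and LINC02985 followed RBL1 (0.9876, 0.9848 and 0.9833), and RUSC1-AS1, PPT1 and BCL11A followed E2F3 (0.9937, 0.9891 and 0.9886). ZNF568, THOC6 and SKA1 followed E2F7 (0.9982, 0.9979 and 0.9976), and EXO1, ING3 and SASS6 followed E2F8 (0.9989, 0.9982 and 0.9981). All arrays are shared within such a pair, and the best of many genes over so few arrays is high by selection.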
